A study of Mus musculus with 8 samples.

Results

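The testis-specific serine kinases are a small family of protein kinases made in male germ cells after meiosis. The genes Tssk1, Tssk2, Tssk3, Tssk4 and Tssk6 were studied together with Tsks, which encodes a protein first known as a substrate of TSSK1 and TSSK2. The members were every probe set of the array annotated with 1 of these 6 symbols. This gave 9 probe sets of the 45101 on the array, and 6 genes of the 18193 that had a single-symbol probe set. No probe set with several symbols named a member.

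RNA came from whole testes of 27-day-old Brwd1-/- mice, called mutants here, and of age-matched mice titled wild type, 4 of each with 1 array per mouse. Brwd1 belongs to a family of bromodomain and WD repeat proteins. The genotype entry of the controls reads Brwd1+/- although their titles say wild type, so they may carry 1 mutant copy. According to the series' design text, germ cells at this age are past meiosis and partway through spermatid development, and the study looked for transcripts whose level the mutation alters. The labels do not describe the Brwd1 allele, and no mouse received a treatment.

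Spermatids first form as round cells and then elongate, pack their DNA with transition proteins and protamines, build a tail and shed most of their cytoplasm. TSSK kinases add phosphate to serine and threonine residues of other proteins during this remodelling, and male mice that lack Tssk6, Tssk3 or both Tssk1 and Tssk2 are infertile. The transcripts of the family appear late in germ cell development, so their level in a whole testis follows both the number of late spermatids and the RNA in each of them. In bulk RNA of this kind, fewer cells of a type and less RNA per cell cannot be told apart.

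All 6 genes read lower on average in mutants than in wild type. The sizes were unequal, with Tssk6 18.2-fold lower, Tssk2 and Tssk3 4.86-fold and 4.61-fold lower, and Tsks, Tssk1 and Tssk4 between 2.26-fold and 2.75-fold lower. The value of Tssk6 leaned on mutant replicate 1 and on the pseudocount: it was 10.2-fold without that mouse, 8.97-fold without it and with the batch block, and 24.0-fold and 12.3-fold with pseudocounts of 1 and 64. With the batch block and without that mouse, Tssk2 and Tssk3 were 3.25-fold and 3.08-fold lower. For Tssk2, Tssk3, Tssk6 and Tsks every mutant value lay below every wild-type value, and for Tssk1 and Tssk4 the genotypes overlapped. Whether a gene passed the test turned on how the mice were compared. No member was called without a block, and Tssk2, Tssk3, Tssk6 and Tsks were called lower with the replicate number or the batch as a block.

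Values are intensities, the brightness of a probe set on an array scaled by the submitters to a common mean. Log2 differences are mutant minus wild type on log2(intensity + 16), which understates changes of dim probe sets, and fold changes come from the same scale. Genotypes were compared with limma over the 27022 probe sets that passed a filter on the mean log2 value over all 8 arrays, and a gene was called below an adjusted p of 0.05. There were 3 fits: unblocked, blocked by replicate number (the replicate block), and with replicates 1 and 2 set against replicates 3 and 4 as a block (the batch block). A gene's call was read from its brightest probe set, and 6 of the 9 member probe sets, 1 per gene, passed the filter. The labels name no batch. Replicates 3 and 4 of both genotypes read apart from replicates 1 and 2 across the array, and epididymis markers summed to between 52297 and 55797 in those mutants and between 45041 and 48647 in those wild-type mice. In replicates 1 and 2 they summed to 600 and 240 in mutants and to 479 and 325 in wild type.

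Array medians lay between 90.7 and 124, and precision is limited by having 4 arrays per genotype. Brwd1 itself was not called. Its brightest probe set read 413.4, 436.1, 324.3 and 286.9 in mutant replicates 1 to 4, against 303.9, 222.0, 305.7 and 328.6 in wild-type replicates 1 to 4 (log2 difference 0.31, limma adjusted p = 0.918). The other 3 kept probe sets were slightly negative (-0.28, -0.20 and -0.04). Where these probes lie relative to the mutation is not known, so they check nothing about the labels.

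**Figure D1:**
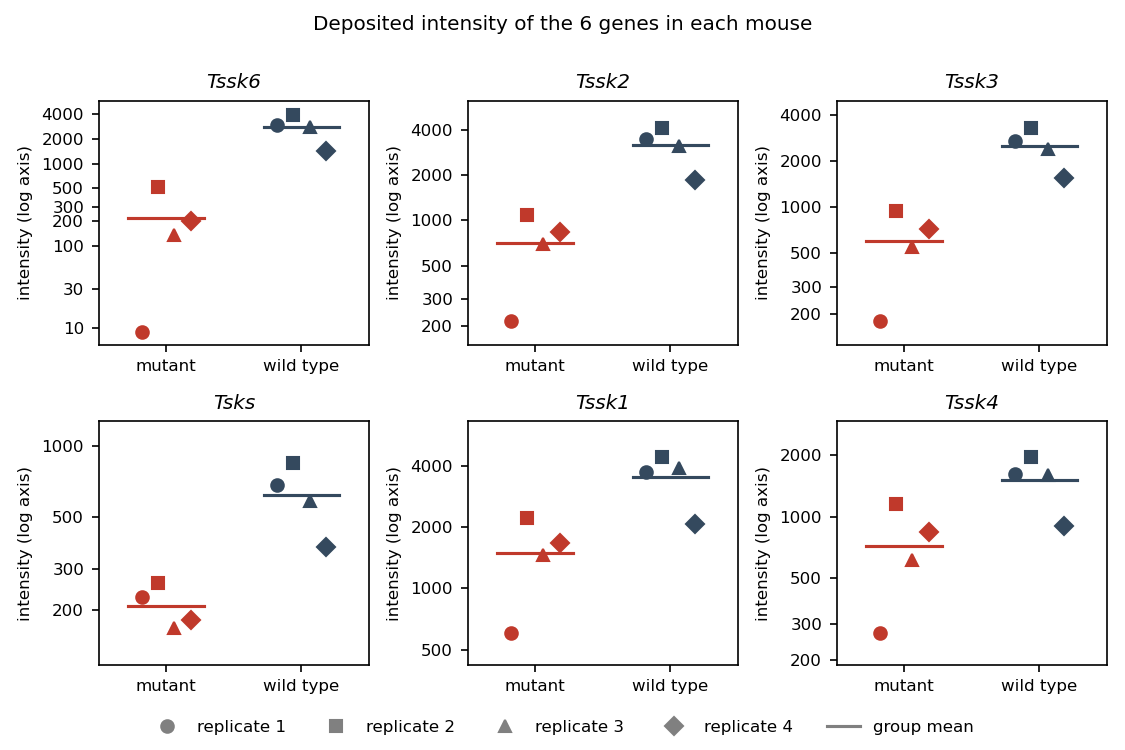
Deposited intensity (log axis) of the probe set that represents each of the 6 genes, with mutants on the left and wild type on the right of each panel; marks show the replicate number, lines the group mean of 4 mice. Mutant replicate 1 is the lowest mutant in every panel but that of Tsks, and wild-type replicate 4 is the lowest wild-type mouse in all 6.

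Tssk6, also called Sstk, encodes a small kinase that is needed for the replacement of histones in elongating spermatids and for male fertility. The gene lies on chromosome 8. Its promoter is shown because, of all the member promoters, it is the one that held a searched motif. The window runs from 250 bases before to 50 bases after the annotated start in RefSeq's GRCm38.p6, at chr8:69901934-69902233 on the + strand, and capitals mark the motif TGACG.
Tssk6: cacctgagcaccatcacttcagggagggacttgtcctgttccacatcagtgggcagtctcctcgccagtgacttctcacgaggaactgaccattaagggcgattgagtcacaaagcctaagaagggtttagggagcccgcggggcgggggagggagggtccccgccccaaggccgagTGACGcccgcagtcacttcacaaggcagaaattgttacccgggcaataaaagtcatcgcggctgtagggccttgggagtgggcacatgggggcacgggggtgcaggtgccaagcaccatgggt

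Tssk6 (probe set 1418956_at) read 8.9, 517.0, 134.1 and 200.5 in mutant replicates 1 to 4, against 2964.9, 3881.1, 2791.7 and 1445.0 in wild-type replicates 1 to 4. All mutants lay far below all wild-type mice, and the lowest wild-type mouse still read above the highest mutant. The means were 215 ± 216 in mutants and 2771 ± 1005 in wild type (SD, n = 4 each). The log2 difference was -4.19 (standard error 0.80), and the limma adjusted p was 0.0954 unblocked, 0.0170 in the replicate-blocked fit and 0.0326 in the batch-blocked fit. Mutant replicate 1, at 0.321% of the wild-type mean, was dimmer than the pseudocount of 16, and the files give no detection call for it. Without that mouse the batch-blocked log2 difference was -3.16 (limma adjusted p = 0.000421). Replicates 1 and 2 alone gave a log2 difference of -4.89. Replicates 3 and 4 alone gave -3.49, where limma called it with an adjusted p of 0.0319.

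Tssk1 and Tssk2 are neighbouring genes on chromosome 16, which RefSeq places next to each other between Dgcr2 and Ess2. Their kinases bind and phosphorylate TSKS in spermatids, and mice that lack both genes are infertile. The promoters of the pair are printed because these genes changed by different amounts and their windows shared the rarest run found between any of the members. The Tssk1 window is chr16:17893953-17894252 and the Tssk2 window chr16:17898387-17898686, both on the + strand of GRCm38.p6 from RefSeq, and capitals mark the shared run of 11 bases.
Tssk1: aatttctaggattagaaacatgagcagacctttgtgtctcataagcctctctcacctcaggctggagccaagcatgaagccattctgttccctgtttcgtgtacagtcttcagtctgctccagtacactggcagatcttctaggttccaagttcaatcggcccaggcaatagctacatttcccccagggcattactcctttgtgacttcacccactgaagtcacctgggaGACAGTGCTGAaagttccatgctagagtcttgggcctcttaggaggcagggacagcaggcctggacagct
Tssk2: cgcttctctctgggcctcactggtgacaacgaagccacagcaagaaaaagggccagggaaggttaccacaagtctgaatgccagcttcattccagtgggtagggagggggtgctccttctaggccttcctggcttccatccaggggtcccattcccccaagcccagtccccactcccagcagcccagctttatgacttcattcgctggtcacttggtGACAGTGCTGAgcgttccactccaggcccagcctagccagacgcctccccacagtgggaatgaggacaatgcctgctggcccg

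Tssk2 (1449489_at) read 213.6, 1086.0, 695.5 and 837.6 in mutant replicates 1 to 4, against 3484.1, 4144.7, 3132.7 and 1847.0 in wild-type replicates 1 to 4. The genotypes did not overlap, with the highest mutant well under the lowest wild-type mouse. Tssk2 averaged 708 ± 367 in mutants and 3152 ± 966 in wild type (SD, n = 4 each). The log2 difference was -2.28 (standard error 0.46), with a limma adjusted p of 0.114 unblocked, 0.0220 replicate-blocked and 0.0388 batch-blocked. In replicates 1 and 2 it was -2.92, against -1.64 in replicates 3 and 4.

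Tssk1 (1417989_at) read 603.5, 2212.8, 1460.8 and 1677.6 in mutant replicates 1 to 4, against 3718.1, 4393.9, 3880.5 and 2065.0 in wild-type replicates 1 to 4. Mutant replicate 2 lay above wild-type replicate 4, so the genotypes overlapped by 1 mouse on each side. The means were 1489 ± 669 in mutants and 3514 ± 1008 in wild type (SD, n = 4 each). The log2 difference of -1.32 had a standard error of 0.39, and limma did not call Tssk1 in the unblocked (adjusted p = 0.277), replicate-blocked (0.0692) or batch-blocked (0.120) fit. Once mutant replicate 1 was dropped, the batch-blocked log2 difference was -0.85 and passed (limma adjusted p = 0.0370). It was -1.79 in replicates 1 and 2, against -0.85 in replicates 3 and 4.

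Tssk3 lies on chromosome 4 and encodes a kinase of post-meiotic germ cells that is needed for male fertility. Its probe set 1418557_s_at read 178.4, 945.3, 547.6 and 721.6 in mutant replicates 1 to 4, against 2710.6, 3320.6, 2427.3 and 1559.2 in wild-type replicates 1 to 4. Every mutant was lower than every wild-type mouse. Means were 598 ± 324 in mutants and 2504 ± 732 in wild type (SD, n = 4 each), and the log2 difference was -2.20 (standard error 0.46). Its limma adjusted p was 0.123 in the unblocked fit, 0.0227 replicate-blocked and 0.0429 batch-blocked. The 2 batches gave -2.80 (replicates 1 and 2) and -1.61 (replicates 3 and 4). The suffix _s_at marks probes that can match transcripts of more than 1 gene, so some of this signal may belong to another transcript. The second Tssk3 probe set, 1432397_at, was below the filter and read between 25.2 and 71.3 in mutants and between 13.6 and 66.9 in wild type.

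Tssk4, on chromosome 14, encodes a kinase of elongating spermatids that phosphorylates the tail protein ODF2. Its probe set 1432101_a_at read 270.4, 1159.1, 615.9 and 841.5 in mutant replicates 1 to 4, against 1609.0, 1950.8, 1599.6 and 897.8 in wild-type replicates 1 to 4. The genotypes overlapped, since mutant replicate 2 read above wild-type replicate 4. Tssk4 averaged 722 ± 374 in mutants and 1514 ± 442 in wild type (SD, n = 4 each). Its log2 difference of -1.17 (standard error 0.42) was not called by limma in any of the 3 fits (adjusted p = 0.456 unblocked, 0.126 replicate-blocked and 0.202 batch-blocked). Replicates 1 and 2 gave -1.62 and replicates 3 and 4 gave -0.72. The batch-blocked value was -0.68 once mutant replicate 1 was dropped (limma adjusted p = 0.134). Both other Tssk4 probe sets were below the filter: 1438486_at read between 33.8 and 50.9 in mutants and between 29.4 and 73.0 in wild type, and 1443810_at between 2.3 and 10.3 in mutants and between 0.8 and 20.7 in wild type.

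Tsks, on chromosome 7, encodes no kinase but the TSSK substrate, a coiled-coil protein that in mice is needed for shedding cytoplasm from spermatids. Its probe set 1419439_at read 227.3, 261.0, 167.7 and 182.3 in mutant replicates 1 to 4, against 681.9, 848.0, 581.3 and 373.6 in wild-type replicates 1 to 4. The genotypes did not overlap, and mutant replicate 1 stood second highest here, unlike in the kinase genes. Tsks averaged 210 ± 42.6 in mutants and 621 ± 198 in wild type (SD, n = 4 each), a log2 difference of -1.46. The standard error was 0.26, and the limma adjusted p was 0.0834 unblocked, 0.00876 replicate-blocked and 0.00628 batch-blocked. Leaving out mutant replicate 1 moved the batch-blocked log2 difference little, to -1.40 (adjusted p = 0.00225), and the values of replicates 1 and 2 (-1.58) and of replicates 3 and 4 (-1.34) were close.

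Without a block, 0 of 6 members were called lower by limma, against 24 of 13787 genes in all (0.174%), and 0 genes were called higher (0%). All 6 members had an unadjusted p under 0.05 in that fit, as did 2001 of the 27022 probe sets (7.41%). The replicate block called 4 of 6 members lower, where 3.11% of all genes were called lower and 0.268% higher. The batch block called the same 4 members, Tssk2, Tssk3, Tssk6 and Tsks, where 2.1% of all genes were lower and 0.421% higher. With mutant replicate 1 also left out of the batch-blocked fit, 5 of 6 members were called, against 3.47% of genes, and Tssk4 was the member that did not pass. The blocked counts leaned on single mice: the replicate block called 5 members without the mice numbered 1, 0 without those numbered 2, 0 without those numbered 3 and 6 without those numbered 4. The batch block called 1 member, Tsks, when wild-type replicate 1, 2 or 3 or mutant replicate 3 or 4 was dropped, and 4 without wild-type replicate 4 or mutant replicate 2. In 4 of 6 members the highest mutant read below the lowest wild-type mouse, which was so in 5.26% of genes. The median log2 difference of the 6 members was -1.83 and that of all 13787 genes was 0.07.

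For a single gene, an exact permutation test over the 70 ways to label 4 of 8 mice as mutants can give no p below 0.0286. The 4 members without overlap reached that two-sided p, and Tssk1 and Tssk4 had an exact p of 0.0571. Relabelling only within replicate numbers or within batches allows no exact p below 0.125 and 0.0556, and all 6 members were at those smallest values. The change between genotypes was numerically smaller in replicates 3 and 4 than in replicates 1 and 2 for all 6 members. For the 5 kinase genes this leaned on mutant replicate 1, their lowest mutant, while mutant replicate 2 was their highest. It leaned on the wild-type mice too, whose mean was lower in replicates 3 and 4 for all 6 members. Tssk1 averaged 4056 in wild-type replicates 1 and 2 and 2973 in replicates 3 and 4, against 1408 and 1569 in mutants. For Tssk6 these means were 3423 and 2118 in wild type, against 263 and 167 in mutants. Tssk6 read 517.0 in mutant replicate 2, above the 134.1 and 200.5 of mutant replicates 3 and 4. The difference between the batches, replicates 3 and 4 minus replicates 1 and 2, was 0.94 for Tssk1, 1.29 for Tssk2, 1.20 for Tssk3, 0.90 for Tssk4, 1.40 for Tssk6 and 0.24 for Tsks on the log2 scale. None passed limma's interaction test (adjusted p between 0.791 and 0.871, 0 of 6 at an unadjusted p under 0.05). No gene of 13787 passed it (0%), and 729 genes had an unadjusted p under 0.05.

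**Figure D2:**
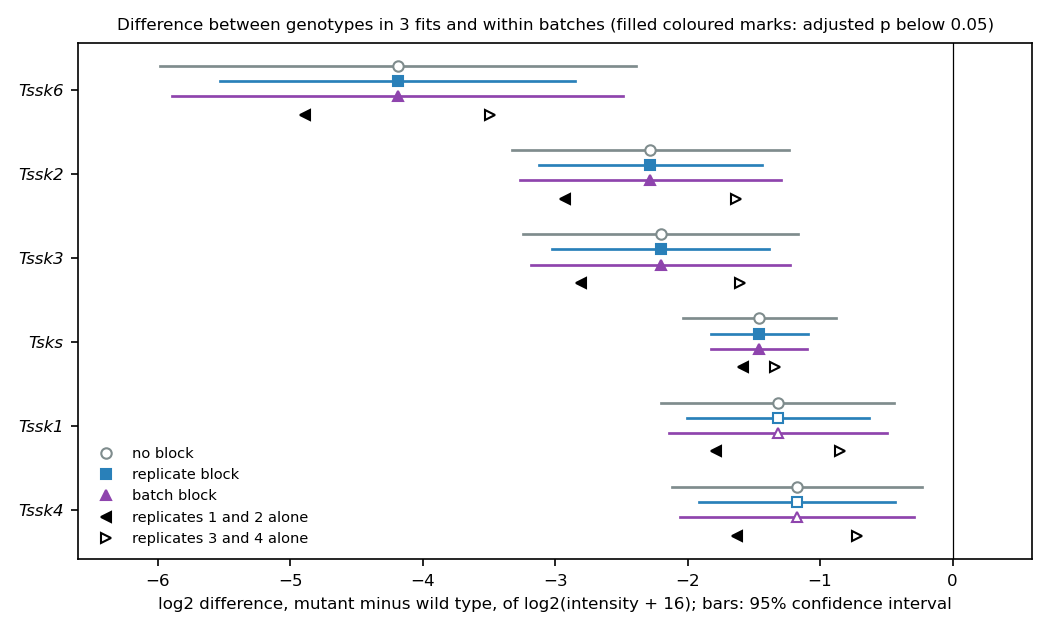
Log2 difference, mutant minus wild type, of each gene in 3 limma fits with 95% confidence intervals, and the difference in each of the 2 batches alone. All intervals lie below 0; coloured marks are filled where the adjusted p was below 0.05, which is the case for Tssk6, Tssk2, Tssk3 and Tsks in both blocked fits and for no gene without a block.

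Whether members changed by unequal amounts was read within arrays. The log2 values of 2 members were subtracted within each array and compared between genotypes with exact permutation tests for all 15 pairs, adjusted over the pairs. In 11 pairs the genotypes did not overlap and the exact p was 0.0286 (adjusted 0.0390), the smallest that free relabelling of these mice allows. The same count was not made for pairs of other genes, so whether 11 of 15 is unusual was not tested. Pairs also share members, so the 15 tests are not independent. Relabelling only within replicate numbers or only within batches cannot go below 0.125 and 0.0556, so none of the pairs passes on that basis, and these 11 pairs were at those smallest values in both. With that limit, Tssk6 changed more than each of the other 5 members. The log2 difference of the other kinase genes exceeded that of Tssk6 by 3.02 for Tssk4, 2.87 for Tssk1, 1.98 for Tssk3 and 1.91 for Tssk2. Tssk6 minus Tsks was -2.73. Without mutant replicate 1 the gaps to Tssk4, Tssk1, Tssk3 and Tssk2 were 2.57, 2.405, 1.62 and 1.55, and Tssk6 minus Tsks was -1.84. The gap to Tssk4 was 3.39 and 2.52 with pseudocounts of 1 and 64.

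The neighbours Tssk1 and Tssk2 were among these 11 pairs. The log2 value of Tssk1 over Tssk2 averaged 1.12 ± 0.21 in mutants and 0.16 ± 0.10 in wild type (SD, n = 4 each), a difference of 0.96. Tssk2 and Tssk3 each changed more than Tssk4, by 1.11 and 1.03, and Tssk1 changed less than Tssk3 by 0.89. These comparisons concern changes in log2 value between genotypes and not levels of one gene against another, since probe sets differ in brightness for the same amount of RNA. Probe sets of the same gene can also read a change differently, and those of Odf2 gave between -0.49 and 0.13. Each member was read from 1 probe set, and the part of the probe sets in these gaps was not tested.

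The 4 pairs that did not pass included Tssk2 with Tssk3 (-0.08, exact p = 0.114) and Tssk1 with Tssk4 (-0.14, exact p = 0.114). Tssk1 and Tssk4 against Tsks gave 0.14 (exact p = 0.914) and 0.29 (exact p = 0.657), and these values were 0.56 and 0.73 without mutant replicate 1. A p above the threshold does not show that these members changed alike. Tssk2 and Tssk3 changed more than Tsks, with differences of -0.82 and -0.74, but both leaned on the same mouse. Without it they were -0.30 and -0.22, and with a pseudocount of 1 the exact p of Tssk3 against Tsks was 0.0571.

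The order of the mice was nearly the same in all 5 kinase genes. Among mutants, replicate 1 was lowest, then replicates 3 and 4, with replicate 2 highest. Among wild-type mice, replicate 4 was lowest and replicate 2 highest for all 6 genes. Mutant replicate 1 read between 0.321% of the wild-type mean for Tssk6 and 36.6% for Tsks. Mutant replicate 2 read between 18.7% for Tssk6 and 76.5% for Tssk4.

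Over the 8 arrays, log2 values of the kinase genes correlated with each other with Pearson r between 0.951 (Tssk4 and Tssk6) and 0.999 (Tssk2 and Tssk3). Tsks correlated with the kinases at r between 0.764 and 0.855. These values hold the gap between genotypes. With the mean of each genotype and batch removed, r lay between 0.966 and 0.997 among the kinases and between 0.529 and 0.706 for Tsks with them. These correlations describe 8 arrays that share their scaling, and mutant replicate 1 lies far from the rest in most of them. With those means removed, only the gap between mice of the same genotype and batch remains, so few independent values carry each r.

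The genes most like each member over the 8 arrays were ranked by the same r among all 13787 genes. For Tssk6 they were Tex37 (0.998), Lrrc52, Actrt2, 1700027F06Rik and Abhd16b. Lrrc52 encodes a partner of a sperm potassium channel and Actrt2 an actin-related protein. Tssk2 ranked with Spata3 (0.998), Ddi1, 1700027F06Rik, Cdyl and 1700029H14Rik, and Tssk3 with Ddi1 (0.998), 1700031F10Rik, 1700027F06Rik, Cby2 and Cdyl. Cdyl encodes a chromodomain protein that acts on histone marks.

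Tssk1 ranked with Stard10 (0.999), Ccer1, Llcfc1, Creb3l4 and Zdhhc25. Creb3l4 encodes a membrane-bound transcription factor of spermatids. Tssk4 ranked with Spata46 (0.998), Cabyr, Ccer1, Lyzl4 and Slc22a14, of which Cabyr encodes a calcium-binding protein of the sperm tail's fibrous sheath. Tsks had other neighbours, with Wwp2 (0.993), a ubiquitin ligase, ahead of 1700001O22Rik, Knstrn, Csnk1g2 and Afg3l1. All of these genes had negative log2 differences, between -3.48 for Tex37 and -0.53 for Afg3l1. The ranking used r that holds the gap between genotypes, so this shared sign was largely set by the choice of genes and is no separate result.

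With genotype and batch means removed, the leading gene was Cabyr for Tssk1 (0.999), Ppm1j for Tssk2 (0.999), Sqor for Tssk3 (0.9997), Znrf4 for Tssk4 (0.9996), Gm19935 for Tssk6 (0.996) and Fam161a for Tsks (0.986). Of the first ranking, Stard10 and Creb3l4 for Tssk1 and Tex37 for Tssk6 were again among the leading 5. What remains here is the gap between mice that share a genotype and batch, so few independent values carry each r. The highest r among 13787 genes can then be near its maximum without any link between the genes. The leading 5 held Prss39 for Tssk6 (log2 difference -0.06) and 4933430H16Rik for Tsks (0.17), and all but 4933430H16Rik had negative values.

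**Figure D3:**
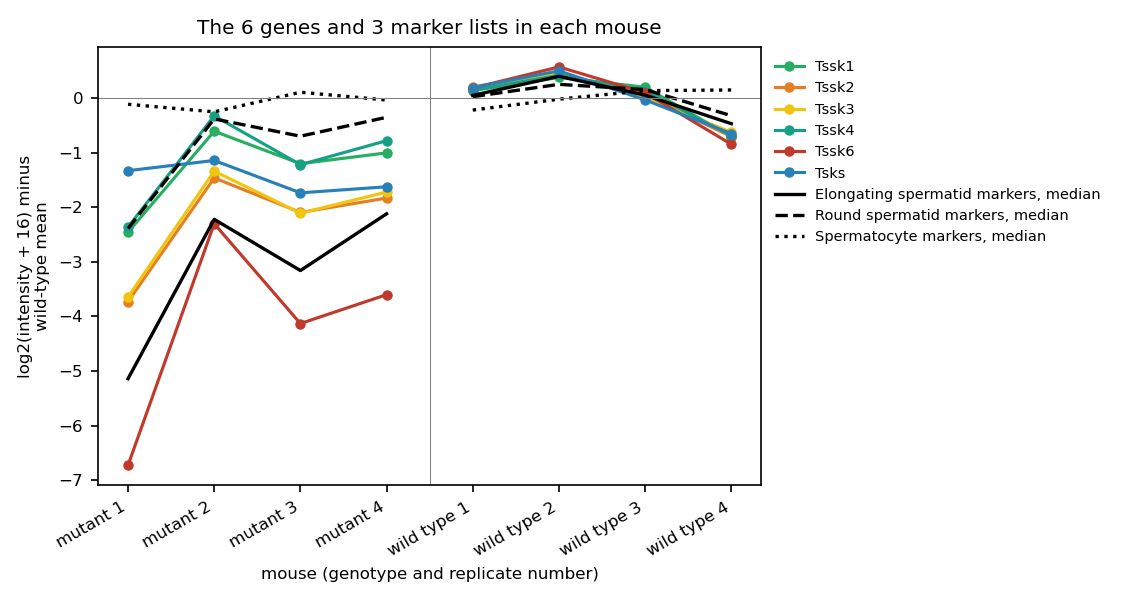
Log2(intensity + 16) of each gene in each mouse, minus its wild-type mean, mutants on the left, with the medians of 3 marker lists in black; lines join mice only to guide the eye. Mutant replicate 1 is lowest for the 5 kinase genes and for the medians of the elongating and the round spermatid markers, and the median of the spermatocyte markers stays near 0 in all mice.

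Markers of elongating spermatids moved with the members. All 9 of 9 markers read lower in every mutant than in every wild-type mouse, with a median log2 difference of -3.21 (-3.88 in replicates 1 and 2, against -2.53 in replicates 3 and 4). The limma fits called 1 of 9 lower unblocked, 9 of 9 replicate-blocked and 7 of 9 batch-blocked. Their summed intensity was 3440, 24449, 11928 and 21690 in mutant replicates 1 to 4, against 105212, 128945, 102961 and 72460 in wild-type replicates 1 to 4. That order of mice is the one most members had.

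Markers of earlier and other cell types had medians closer to 0. Of 10 round spermatid markers 0 were called lower and 1, Tex101, was called higher with either block, and 7 of 10 had an unadjusted p under 0.05 in each of the 3 limma fits. Their median log2 difference was -0.99 (-1.54 in replicates 1 and 2, against -0.45 in replicates 3 and 4), and 8 of 10 were negative. In 5 of 10 every mutant read below every wild-type mouse. With mutant replicate 1 left out of the batch-blocked fit, limma called 2 of 10 round and 9 of 9 elongating spermatid markers lower, against 3.47% of genes. The round spermatid markers summed to between 37252 and 52421 in mutants and between 31774 and 45932 in wild type, but Tex101 carried much of the sum. Without it the other 9 summed to between 18606 and 27866 in mutants and between 24137 and 35390 in wild type. Among mutants that sum was lowest in replicate 1 and highest in replicate 2, as in the kinase genes. None of the 10 spermatocyte markers was called (median -0.04, 0, 0 and 2 at an unadjusted p under 0.05 in the unblocked, replicate-blocked and batch-blocked limma fits), and their sums ran between 39139 and 48249 in mutants and between 40335 and 47296 in wild type. Spermatogonia, Sertoli and Leydig cell markers had medians between 0.15 and 0.16 with 0 called in any of the 3 fits, and 2, 1 and 1 of them had an unadjusted p under 0.05 without a block. Epididymis markers had 0 called (median 0.08, 0 at an unadjusted p under 0.05 without a block). So few of all genes were called in these fits that no call in a list this short says little. No marker was at 0 on every array. The part of these cell types in the result for the members was not tested.

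Partners and substrates of the TSSK kinases were measured next, 12 of 13 listed genes, and Hsp90ab1 was not analysed here. Limma called 0 of 12 without a block, with 2 at an unadjusted p under 0.05, and called Hspa1l and Odf2 lower with either block. Of all genes, 3.11% and 2.1% were called lower with the replicate and the batch block. The median log2 difference was -0.14. Hspa1l encodes a testis heat shock protein of the HSP70 family and is also in the elongating spermatid list. It read 49.0, 373.1, 284.4 and 471.9 in mutant replicates 1 to 4, against 1827.5, 2962.2, 2736.5 and 1762.2 in wild-type replicates 1 to 4. The genotypes were far apart, with a log2 difference of -3.21 (limma adjusted p = 0.0834 unblocked, 0.0115 replicate-blocked and 0.0218 batch-blocked).

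Odf2, which encodes an outer dense fibre protein of the sperm tail and a TSSK4 substrate, was bright in both genotypes. It averaged 7901 ± 689 in mutants and 11107 ± 1426 in wild type (SD, n = 4 each) without overlap, a log2 difference of -0.49 (limma adjusted p = 0.177 unblocked, 0.0243 replicate-blocked and 0.0433 batch-blocked). Its other 4 kept probe sets gave -0.43, 0.10, 0.13 and 0.07. The one at -0.43 passed with the replicate block (limma adjusted p = 0.0409) but not with the batch block (0.0607). The probe sets differed in sign, but none of the positive values was called in any fit.

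The other 10 partners were not called. Tsacc, which encodes a co-chaperone that binds TSSK6, averaged 5427 ± 1409 in mutants and 6826 ± 1297 in wild type (SD, n = 4 each), a log2 difference of -0.35. Crem, which encodes a transcription factor of post-meiotic germ cells, had -0.45, and the related kinase gene Tssk5 had -0.52 at low intensity. The axonemal protein gene Spag16 had -0.27 and the kinase gene Pdpk1 -0.01. Small positive values were found for the chaperone genes Hsp90aa1 (0.05) and Hspa2 (0.08), the phosphatase gene Ppp1cc (0.14), the histone gene H2ax (0.18) and the transcription factor gene Creb1 (0.06).

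The kinase lists around the family held no called gene. Of all genes, 0.174%, 3.11% and 2.1% were called lower in the unblocked, replicate-blocked and batch-blocked limma fits. Lists this short can hold none at such shares, so they do not show that other kinases kept their level. Of 20 listed relatives in the same kinase group, such as the AMPK, MARK and SIK kinases, 19 passed the filter and 0 were called in any of the 3 limma fits, with 0 at an unadjusted p under 0.05 and a median of 0.07. The genes with the smallest p were Mark1 (0.27), Sik3 (0.26), Nuak1 (0.32) and Sik1 (0.35). Of 24 other protein kinases known in germ cells 21 were tested and 0 were called in any fit, with 2 at an unadjusted p under 0.05 without a block and a median of -0.04. Aurkc, an Aurora kinase of meiosis, averaged 2154 ± 259 in mutants and 1634 ± 33.4 in wild type, and Camk4, a calcium-dependent kinase, 350 ± 71.3 in mutants and 570 ± 163 in wild type (SD, n = 4 each). For Aurkc every mutant read above every wild-type mouse, and for Camk4 the genotypes overlapped. Limk2 had a log2 difference of -0.41 and Mak of 0.17.

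TSSK1, TSSK2 and TSKS have been found in the chromatoid body, an RNA granule of spermatids, and in the ring near the annulus of the growing tail. Of 12 chromatoid body genes 11 were tested and 0 were called in any limma fit, with 1 at an unadjusted p under 0.05 without a block and a median of -0.10. A list this short can hold none at the shares of all genes called. Kif17 had a log2 difference of -0.62, Tdrd5 of 0.35, Ddx25 of -0.20 and Piwil1 of -0.19. Of 6 annulus genes limma called 0 without a block, with 2 at an unadjusted p under 0.05, and 1 with the replicate block, Septin4, which encodes a septin needed for the annulus. It averaged 551 ± 204 in mutants and 1067 ± 157 in wild type without overlap (SD, n = 4 each), a log2 difference of -1.01 (limma adjusted p = 0.231 unblocked, 0.0427 replicate-blocked and 0.0522 batch-blocked). Another Septin4 probe set gave -0.78 and passed with both blocks (0.0306 and 0.0406). Dnajb13 had -0.84, Septin12 -0.26 and Septin6 0.11.

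**Figure D4:**
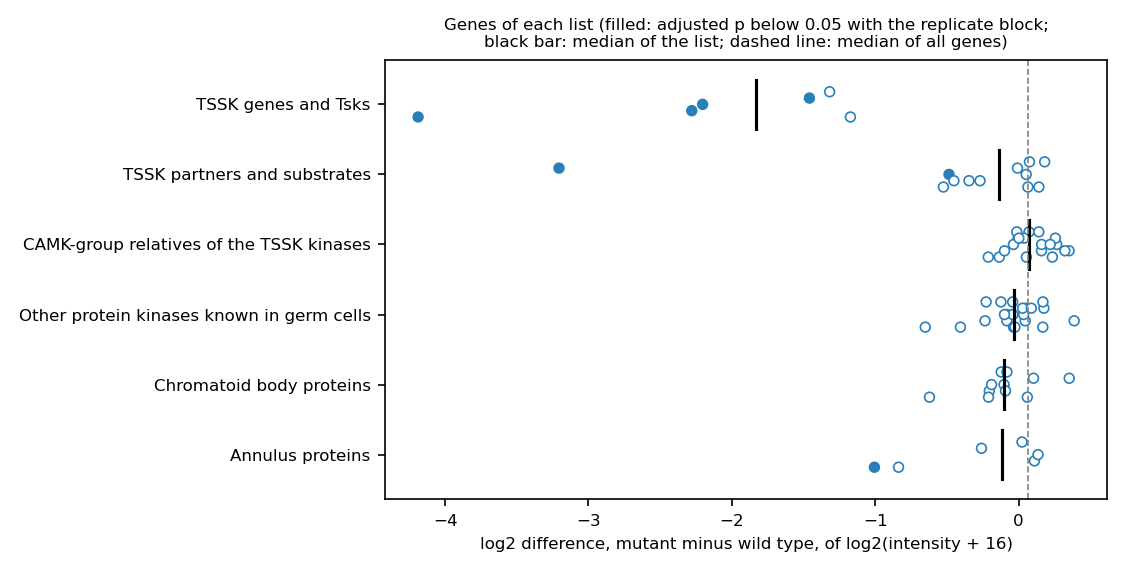
Log2 difference, mutant minus wild type, of each tested gene in the TSSK and Tsks group and 5 lists of related genes; points are genes, filled where limma's adjusted p with the replicate block was below 0.05, black bars are list medians and the dashed line is the median of all genes. The member median of -1.83 lies below the other list medians, which run between -0.14 and 0.07.

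The promoter windows of all 6 members were searched on both strands for 4 motifs. The full cyclic AMP response element TGACGTCA was in 0 of 6, against 1.79% of the 32851 RefSeq promoters in the table. Its shorter core TGACG, which lies within the full element, was in 1 of 6, that of Tssk6, 73 bases before the start on the gene's strand, as capitalised above, and was in 20.8% of promoters. The X-box core GTTGCC of RFX factors and the TATA box TATAAA were in 0 of 6, against 12.5% and 13.6% of promoters. No match says only that these letters are not in this window.

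The run GACAGTGCTGA shared by Tssk1 and Tssk2 begins 20 bases before the Tssk1 start and 33 bases before the Tssk2 start. It was found in 6 of all the promoters (0.0183%), these 2 included. The GC content of the windows was 50.7% for Tssk1, 59.7% for Tssk2, 59.3% for Tssk3, 43.3% for Tssk4, 60.7% for Tssk6 and 60.7% for Tsks, against a median of 52.7% in the table. Tssk4, the gene with the smallest change, had the lowest GC content, which is a description of 6 windows and no more.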

How the data were processed

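Testis RNA of 8 mice was turned into biotin-labelled cRNA and hybridised to Affymetrix arrays, per the labels' protocols. The authors obtained linear intensities from the arrays with GCOS, per the submitters' processing notes, and deposited them; its version is not given in the sources used here. Each deposited array has a mean intensity of 500 after trimming 2% at each end, so arrays were scaled to 1 target.

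After removing 64 control probe sets, log2(intensity + 16) was computed from the deposited values, and probe sets with a mean log2 value above the 40th percentile were kept (27022 of 45037). Symbols came from the platform annotation, updated by Entrez identifier for 34741 probe sets. Genes are represented by the kept probe set with the highest mean (13787 genes). Genotypes were compared with limma 3.58.1 (R 4.3.3, lmFit and eBayes with trend, two-sided, Benjamini-Hochberg over all kept probe sets, threshold 0.05). The fits were first run on simulated data with independent noise in each probe set and no outlying mouse. That run says nothing about mice that deviate together, as these did.

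Mice of the same number deviated together (r between 0.518 and 0.618 in 4 pairs), which by the rule used here counts as pairing. The closest wild-type mouse had another number for 3 of 4 mutants but lay in the same batch for all 4, and the labels name no source of pairing. Exact permutation tests went through all allowed relabellings, and scipy 1.17.1 gave the adjustment over the pairs. Promoters and chromosomes are those of RefSeq GRCm38.p6, and all 6 members matched. The members, lists, batch split and tests were chosen with earlier results of these data known. Named genes are all members and partners, up to 4 genes with the smallest p of each other list, and the 5 most like each member. Alternatives covered blocks, batches, normalization, pseudocount, filter, eBayes options and each mouse left out. A planned alignment of member proteins was not run.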

Additional observations from a re-analysis of the deposited data

Results flagged for a closer look

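Among 42 groups of 4 mice tested for a value far from the other 3, 2 held one, and chance gives about 1 in 20. The dim Tssk4 probe set 1443810_at read 10.3 in mutant replicate 4, against 2.3 to 3.1 in the other mutants. Ppp1cc, which encodes a protein phosphatase catalytic subunit, read 19400.4 in wild-type replicate 4, against 21875.0 to 22298.6 in the other wild-type mice.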

How the results depend on the processing

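All 6 members kept a negative log2 difference under the 43 alternatives tried, between -4.93 and -3.16 for Tssk6, -2.92 and -1.64 for Tssk2, -2.80 and -1.61 for Tssk3, -1.69 and -1.29 for Tsks, -1.79 and -0.85 for Tssk1 and -1.62 and -0.68 for Tssk4. Many of these alternatives cannot move a log2 difference. They are the blocks with all mice kept, the filters, 1 probe set per gene, the eBayes options and the p threshold, and they say nothing about its sign. How many passed did not hold, and the cause was not tested. Against 0 members without a block, the replicate block and the batch block called 4 each, the batch block without mutant replicate 1 called 5, replicates 3 and 4 alone 1, a pseudocount of 64 called 1 and array weights 5. Leaving out 1 mouse without a block called between 0 and 2. Alternatives chosen after seeing the data gave between 0 and 6 for the replicate block with 1 number left out and between 1 and 4 for the batch block with 1 mouse left out. They gave 4 with quantile normalization or 1 probe set per gene in either block, 4 and 1 with a pseudocount of 1 in the replicate and batch block, and 5 and 4 with a pseudocount of 64. Against 30 probe sets of 27022 called without a block, there were 630 with the replicate block, 477 with the batch block, 689 with the batch block without mutant replicate 1, 0 within replicates 1 and 2, 55 with a pseudocount of 64, 659 with array weights, 0 at a threshold of 0.01, and between 0 and 118 with 1 mouse left out. Against 0 genes of the partner, kinase, chromatoid body and annulus lists, there were 3 with the replicate block, 2 with the batch block, 3 with the batch block without mutant replicate 1, 1 within replicates 3 and 4, 1 with a pseudocount of 64, 2 with array weights and between 0 and 1 with 1 mouse left out. Of the 15 member pairs 11 passed under free relabelling and 0 under relabelling within replicate numbers (the replicate block) or within batches, both added after seeing the data, since neither can give an exact p under 0.05. Leaving out 1 mouse also makes the batches uneven between genotypes. Without detection calls, dim probe sets cannot be placed relative to background.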

Other observations

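The genes next to each member in the RefSeq order were looked up after the members' values had been seen. None of the 9 measured neighbours was called by limma in any of the 3 fits. Of all genes, at most 3.11% were called lower in these fits, so no call among so few neighbours says little. Fam229a, next to Tssk3, averaged 1194 ± 529 in mutants and 2866 ± 1107 in wild type (SD, n = 4 each), a log2 difference of -1.27 (limma adjusted p = 0.285 unblocked, 0.0612 replicate-blocked and 0.101 batch-blocked). Bsdc1, on the other side of Tssk3, had 0.19. Dgcr2 (0.16) and Ess2 (-0.11), on either side of the Tssk1 and Tssk2 pair, and Ndufa13 (-0.10) and Gatad2a (-0.02), on either side of Tssk6, had values near 0. Tm9sf1 and Mdp1 beside Tssk4 had 0.28 and 0.14, and Cpt1c beside Tsks had -0.19.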
